A study of Mus musculus with 2 samples.

Results

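The Hnrnp and Srsf genes encode the heterogeneous nuclear ribonucleoproteins (hnRNPs) and the serine/arginine-rich (SR) splicing factors. All mouse genes whose symbol starts with Hnrnp or Srsf were taken if they had at least 30 unique molecular identifiers (UMIs, each standing for 1 captured RNA molecule) over the kept cells of both libraries. This gave 31 of 31 such symbols, 20 Hnrnp and 11 Srsf genes, out of 31053 genes in the table. Srsf12 had the fewest, at 33 UMIs, just inside the minimum, and no symbol fell outside it.

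hnRNPs coat nascent transcripts and often repress nearby splice sites, and several also act in mRNA export, stability and translation. SR proteins bind exonic enhancers through RNA recognition motifs and recruit the spliceosome through a tail rich in arginine and serine, which SRPK and CLK kinases phosphorylate. Prmt1 encodes the main enzyme of asymmetric arginine dimethylation, and arginine beside glycine in hnRNPs is among its best known substrates. RNA counts do not report methylation, protein or splicing.

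Hearts of E12.5 mouse embryos were dissociated with TrypLE and profiled in 10X Genomics Chromium droplets. The mutant embryos carried Tbx18-Cre, floxed Prmt1 on both chromosomes (Prmt1 fl/fl) and 1 copy of a YFP allele. The control embryos carried Tbx18-Cre and the YFP allele, so both groups had the Cre driver and the reporter. Tbx18-Cre is active in the epicardium, the outer layer of the heart, but Tbx18 is also expressed in some other cardiac cells, and which cells had recombined was not measured. The sources used here give neither the number of embryos behind each library nor any selection of YFP-positive cells. Each genotype had 1 library. Differences between genotypes therefore have no replicate check, no test is given, and every interval is an exact 95% interval for counting error only.

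After filtering (at least 1000 UMIs and 500 genes and at most 20% mitochondrial UMIs), 4640 mutant and 4100 control cells were kept, with medians of 4046 UMIs per mutant cell and 5896 UMIs per control cell. In all, the mutant library held 48527471 deposited UMIs and the control library 49323576, and 8 kept barcodes occurred in both. Cells were assigned to classes by markers: 384 mutant and 221 control cells were epicardial, 1270 mutant and 739 control cells mesenchymal, 262 mutant and 210 control cells endothelial, and 1550 mutant and 1988 control cells cardiomyocytes. All 10 epicardial markers were detected in the epicardial cells of both libraries. They summed to 1842 UMIs per 1000000 UMIs of the class and library (CPM) in mutant and 2359 CPM in control cells. The 10 mesenchymal markers summed to 1239 CPM (mutant) and 1340 CPM (control) there, so the class was not free of mesenchymal transcripts. The 10 cardiomyocyte markers summed to 126 CPM (mutant) and 134 CPM (control) in the same cells. Of 10 endothelial markers, 4 (mutant) and 6 (control) were detected in the epicardial cells, with sums of 92 CPM (mutant) and 79 CPM (control). Pecam1, Cdh5, Plvap and Cldn5 had no UMI there in either library. Cells that also passed the endothelial gate were not in the class, so low values were partly set by the gate. The 10 leading genes of each of these 4 classes held no marker of another class.

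Arginine-glycine stretches of Hnrnpa1 and Hnrnpu and arginine-serine stretches of Srsf2 and Srsf11 are shown as coding sequence. Stretches of these kinds are the parts of the proteins that Prmt1 and the SR protein kinases modify. Each line gives 120 bases of a GENCODE M21 (GRCm38) transcript, 5′ to 3′ in the sense of the gene. Capitals mark an arginine codon followed by a glycine codon in Hnrnpa1 and Hnrnpu, and an arginine codon beside a serine codon in Srsf2 and Srsf11.
Hnrnpa1: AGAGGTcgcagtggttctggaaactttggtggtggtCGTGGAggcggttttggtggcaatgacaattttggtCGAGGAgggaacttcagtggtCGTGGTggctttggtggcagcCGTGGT
Hnrnpu: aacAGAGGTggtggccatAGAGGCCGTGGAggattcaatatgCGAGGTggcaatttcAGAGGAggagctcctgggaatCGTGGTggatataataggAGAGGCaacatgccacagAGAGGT
Srsf2: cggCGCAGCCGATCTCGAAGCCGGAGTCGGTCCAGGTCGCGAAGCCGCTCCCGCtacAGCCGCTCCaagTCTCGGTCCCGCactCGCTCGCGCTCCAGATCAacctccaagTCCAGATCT
Srsf11: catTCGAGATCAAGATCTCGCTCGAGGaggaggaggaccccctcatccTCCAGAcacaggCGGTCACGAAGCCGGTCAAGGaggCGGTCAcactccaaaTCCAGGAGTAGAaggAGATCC

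The 40 codons shown held 5 arginine-glycine pairs in Hnrnpa1 (bases 580 to 699 of its coding sequence; gene at chromosome 15, 103240432 to 103246692) and 8 in Hnrnpu (bases 2029 to 2148; chromosome 1, 178321108 to 178337797). They held 28 arginine-serine pairs, read in either order, in Srsf2 (bases 376 to 495; chromosome 11, 116849901 to 116853094) and 19 in Srsf11 (bases 826 to 945; chromosome 3, 158010473 to 158036639). Over whole coding sequences, 19 of the 31 genes had at least 5 arginine-glycine pairs, led by Hnrnpr with 24 pairs, Hnrnpu with 20 and Hnrnpul1 with 15. Both families were among the 19, as Srsf1 had 6 pairs and Srsf5 and Srsf9 had 5, while Hnrnpl and Hnrnpll had 2. These counts were not scaled by length, and no share over all genes was taken. Srsf4 had 106 arginine-serine pairs, Srsf6 had 74, Srsf7 had 55 and Srsf2 had 52, while Srsf9, an SR protein with a short tail, had 9.

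Apart from Srsf12, which had no UMI in endothelial or immune cells of either library, every member was detected in both libraries in these 5 classes, and a few members supplied most of the molecules. Hnrnpa2b1, which encodes RNA-binding proteins that also take part in RNA transport, gave 14.0% of all member UMIs, and the 10 members with the highest mean CPM gave 65.5%. Counts are of 3′ ends, 1 per molecule, and were not divided by transcript length. Hnrnpa2b1 stood at 496 CPM in mutant and 462 CPM in control epicardial cells, 531 CPM in mutant and 531 CPM in control mesenchymal cells, 598 CPM in mutant and 621 CPM in control endothelial cells, and 475 CPM in mutant and 446 CPM in control cardiomyocytes. It was thus the member with the highest count in each of the 4 classes of both libraries, and it varied little, with 1.32-fold between its highest and lowest class.

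**Figure D1:**
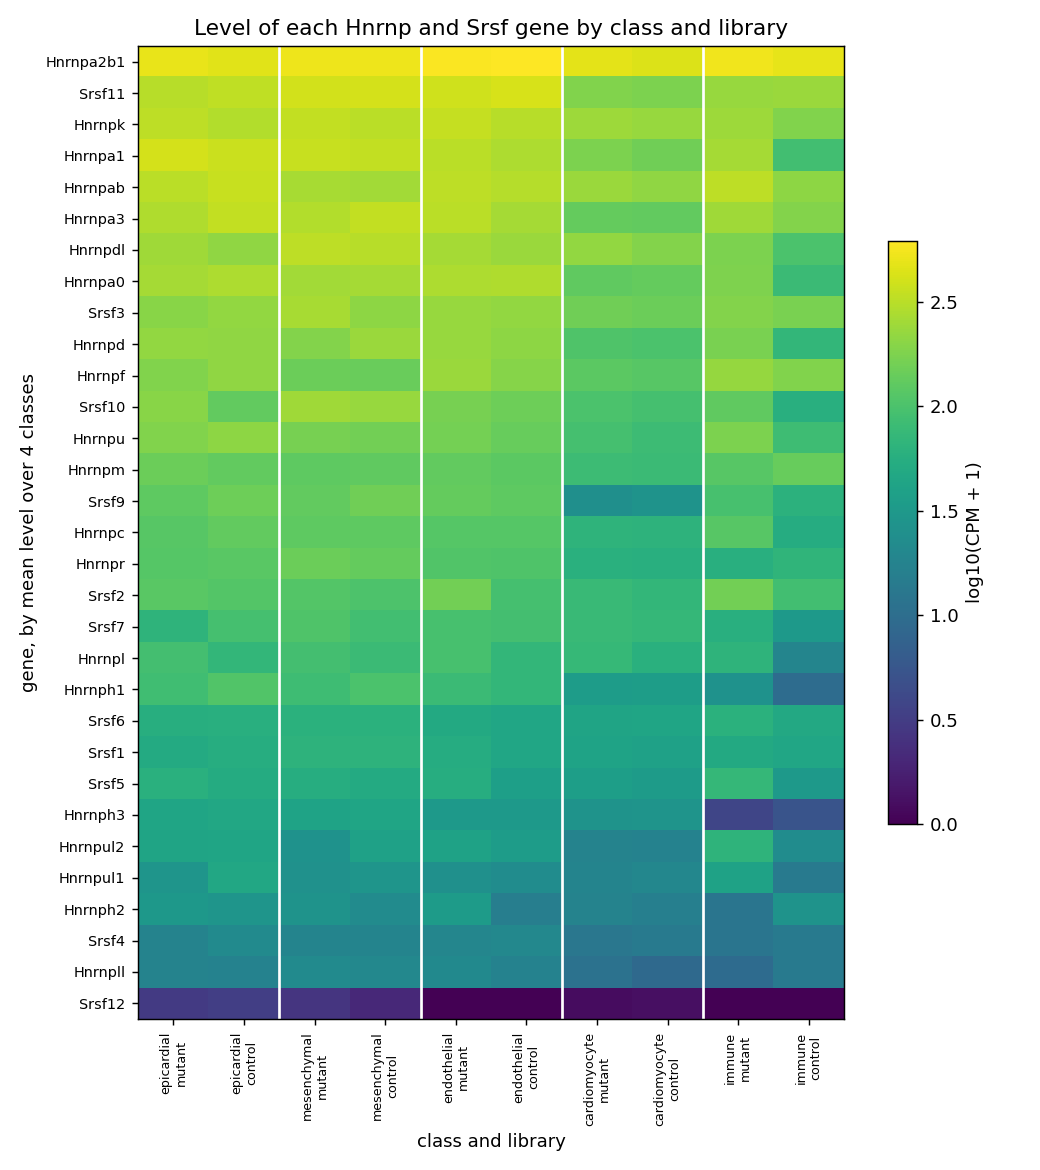
Level of the 31 Hnrnp and Srsf genes (rows, by mean CPM over 4 classes) in 5 marker-gated classes, mutant left of control, as log10(CPM + 1). Hnrnpa2b1 is brightest throughout and the cardiomyocyte columns are darker than their epicardial, mesenchymal and endothelial neighbours, most clearly for Srsf9.

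Cardiomyocytes held the smallest share of Hnrnp and Srsf UMIs among the 4 classes. The 31 genes together took 0.308% of UMIs in mutant cardiomyocytes (0.305% to 0.310%) and 0.288% in control cardiomyocytes (0.286% to 0.290%). In epicardial cells they took 0.485% in the mutant and 0.493% in the control library, in mesenchymal cells 0.504% (mutant) and 0.500% (control), and in endothelial cells 0.510% (mutant) and 0.467% (control). A member was counted as tested in a pair of cell groups if it had at least 50 CPM in 1 of them and 30 UMIs over both. A gene at 50 CPM in only 1 of them could thus be called only in that group's direction. Against cardiomyocytes, 13 of 23 members in mutant and 14 of 24 in control epicardial cells were past 1.5-fold higher, where 39.8% (mutant) and 42% (control) of all genes tested were. None was past 1.5-fold lower, against 17.1% (mutant) and 17.2% (control) of all genes.

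Mesenchymal cells had 12 of 24 members past 1.5-fold higher than cardiomyocytes in the mutant and 14 of 23 in the control library, against 39.8% (mutant) and 40.6% (control) of all genes, and none past 1.5-fold lower, against 16.9% (mutant) and 16.9% (control). Endothelial cells had 14 of 23 in the mutant and 13 of 21 in the control, against 39.7% (mutant) and 40.2% (control), and none lower, against 16.6% (mutant) and 17.2% (control). The median member ratios to cardiomyocytes lay between 0.66 and 0.72 on the log2 scale in these 6 contrasts, while the medians of all genes lay between 0.37 and 0.41. Over all 31 members, with no minimum, the medians lay between 0.52 and 0.64. Cardiomyocytes carried far more UMIs per cell, with medians of 11781 in mutant and 10717 in control cells against 2799 (mutant) and 2522 (control) in epicardial cells. At a matched depth of 4000 to 8000 UMIs per cell the share was 0.255% in mutant and 0.231% in control cardiomyocytes, against 0.447% (mutant) and 0.439% (control) in epicardial, 0.517% in mutant and 0.561% in control mesenchymal and 0.408% in mutant and 0.390% in control endothelial cells. Cardiomyocytes had the smallest share of the 4 classes in each bin from 2000 UMIs up in both libraries. Between 1000 and 2000 UMIs this was not so: there the share was 0.352% in mutant and 0.365% in control cardiomyocytes, against 0.353% (mutant) and 0.302% (control) in epicardial, 0.374% (mutant) and 0.365% (control) in mesenchymal and 0.353% (mutant) and 0.346% (control) in endothelial cells. That bin held 20 mutant and 34 control cardiomyocytes.

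Members differed in how they were spread over the classes. Srsf9 varied most among those with at least 50 CPM, together with Hnrnph1. It stood at 23.9 CPM in mutant and 26.5 CPM in control cardiomyocytes, against 131 CPM (mutant) and 153 CPM (control) in mesenchymal, 126 CPM in mutant and 150 CPM in control epicardial and 136 CPM in mutant and 124 CPM in control endothelial cells. As the mean of both libraries, its mesenchymal level was 5.62-fold its cardiomyocyte level. Hnrnph1, which binds runs of guanine in RNA, averaged 96.7 CPM in epicardial cells and 17.1 CPM in immune cells, 5.64-fold apart, but the immune level rested on 9 mutant and 2 control UMIs. In cardiomyocytes it had 34.2 CPM in mutant and 35.3 CPM in control cells.

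Srsf10, a splicing repressor when dephosphorylated, varied 2.61-fold, and Hnrnpr, a close relative of Syncrip, 2.43-fold; both were highest in mesenchymal cells in both libraries. Hnrnpa3 varied 2.39-fold and Hnrnpa1, a repressor of exon inclusion, 2.38-fold. Hnrnpa1 was highest in epicardial cells in both libraries, at 410 CPM in mutant and 373 CPM in control cells, against 174 CPM in mutant and 155 CPM in control cardiomyocytes. Srsf11, an SR-related factor, was near 400 CPM in mesenchymal and endothelial cells (403 CPM in mutant and 409 CPM in control mesenchymal cells, 388 CPM in mutant and 416 CPM in control endothelial cells) and at 183 CPM in mutant and 176 CPM in control cardiomyocytes. Over 5 classes with immune cells, cardiomyocytes were lowest for 21 members in the mutant and 15 in the control library, and immune cells for 10 (mutant) and 15 (control). The immune counts include Srsf12, which had no UMI in endothelial cells either, and Hnrnph3, with 1 mutant and 1 control immune UMI. The share of all genes lowest in each class was not taken, so these counts are not read as results about the members. The highest class was less stable, being the same in both libraries for 13 of 31 members.

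The share of Hnrnp and Srsf UMIs was larger in deeper epicardial, mesenchymal and endothelial cells, but not in the same way in cardiomyocytes. In mesenchymal cells it was 0.374% in mutant and 0.365% in control cells with 1000 to 2000 UMIs, 0.408% (mutant) and 0.415% (control) at 2000 to 4000, 0.517% (mutant) and 0.561% (control) at 4000 to 8000, 0.897% (mutant) and 0.871% (control) at 8000 to 16000, and 1.02% (mutant) and 0.948% (control) at 16000 or more. In epicardial cells it went up from 0.353% in mutant and 0.302% in control cells of the shallowest bin to 0.686% (mutant) and 0.780% (control) at 8000 to 16000 UMIs, and stood at 0.811% (mutant) and 0.651% (control) in the deepest bin. Endothelial cells had 0.353% (mutant) and 0.346% (control) in the shallowest and 0.696% (mutant) and 0.597% (control) in the deepest bin. Cardiomyocytes had 0.352% (mutant) and 0.365% (control) in the shallowest bin, a minimum of 0.255% (mutant) and 0.231% (control) at 4000 to 8000 UMIs, and 0.330% (mutant) and 0.310% (control) in the deepest. The deepest bins were thin, with 11 mutant and 6 control epicardial, 11 mutant and 7 control mesenchymal, and 16 mutant and 11 control endothelial cells. Without them the share still went up over the other 4 bins in mesenchymal cells.

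**Figure D2:**
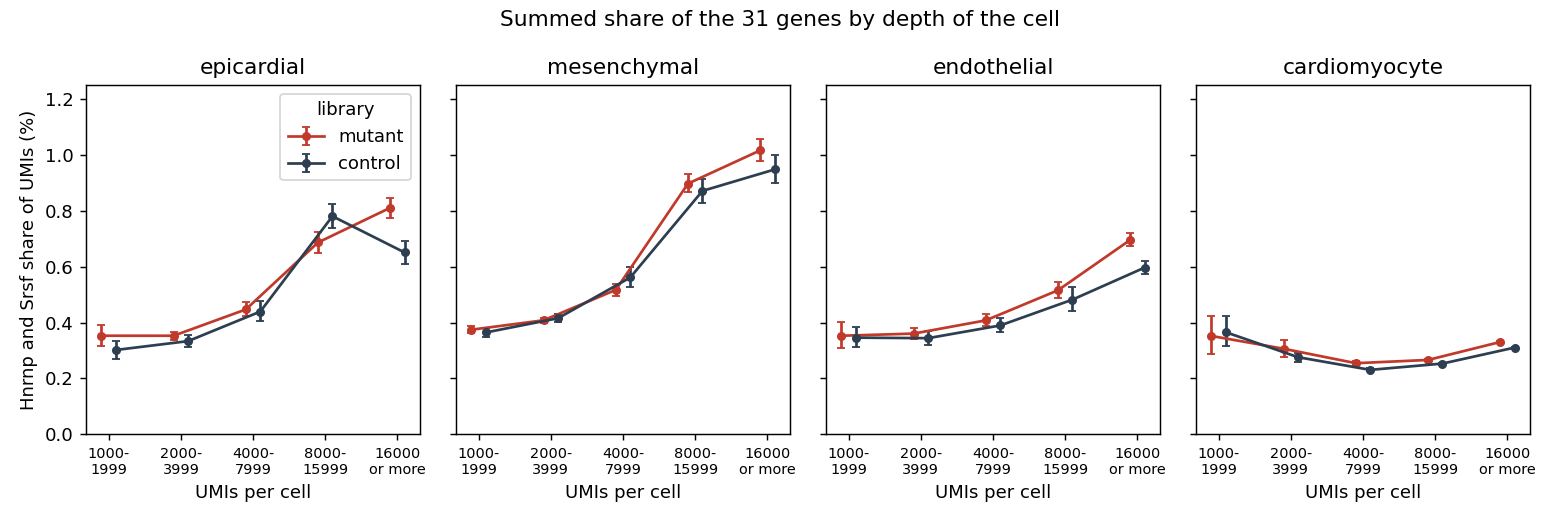
Summed share of the 31 genes (percent of UMIs, vertical axis) by UMIs per cell (horizontal axis) in each class, for the mutant (red) and control (dark) library; bars are exact 95% binomial intervals for counting error. The mesenchymal lines climb between the shallowest and the deepest bin, to 1.02% (mutant) and 0.948% (control) against 0.374% (mutant) and 0.365% (control), while cardiomyocytes stay between 0.231% and 0.365%.

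Set against shallow cells of the same class and library (under 4000 UMIs), deep cells (at least 8000 UMIs) had higher CPM of most but not all members. In mesenchymal cells, 39 deep against 1144 shallow mutant cells gave 23 of 28 members past 1.5-fold higher, and 23 deep against 683 shallow control cells also gave 23 of 28. The background was 46% (mutant) and 45.9% (control) of all genes, and no member was past 1.5-fold lower, against 24.1% (mutant) and 25.3% (control) of genes. The median log2 ratio of the members was 1.37 in the mutant and 1.42 in the control library, where that of all genes was 0.44 in both. A member at 50 CPM only in deep cells could be called only higher, so the counts lean that way. Over all 31 members, with no minimum, 31 (mutant) and 29 (control) had a ratio above 0. Medians over the 31 members were 1.27 (mutant) and 1.39 (control). Neither the share of all genes above 0 nor their median was taken without a minimum, so these values have no background beside them.

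Hnrnpf, which binds guanine runs like Hnrnph1, had 406 CPM in deep against 83.0 CPM in shallow mutant mesenchymal cells, and 388 against 85.9 CPM in control cells, log2 ratios of 2.16 (mutant) and 2.05 (control). Hnrnpa1 had 869 against 237 CPM in mutant and 925 against 188 CPM in control cells. Hnrnpu, a scaffold protein that binds chromatin and RNA, had 438 against 106 CPM in mutant cells; in control cells it had 403 against 92.0 CPM. Srsf2, which acts in splicing and in release of paused polymerase, had 296 against 67.9 CPM in mutant and 262 against 63.1 CPM in control cells.

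Srsf11, Srsf10 and Hnrnpdl stood near a ratio of 0 instead. Srsf11 had 414 CPM in deep against 386 CPM in shallow mutant cells and 381 against 419 CPM in control cells, log2 ratios of 0.10 (mutant) and -0.13 (control). The Srsf10 ratios were 0.13 in the mutant and -0.24 in the control library, and those of Hnrnpdl, a relative of Hnrnpd, were 0.21 (mutant) and 0.050 (control). Srsf9 lay at 0.54 (mutant) and 0.36 (control). The share of RNA taken by Srsf11, Srsf10 and Hnrnpdl was thus close to level in deep mesenchymal cells, while that of Hnrnpf, Hnrnpa1, Hnrnpu and Srsf2 was several-fold larger. Srsf10 was less level in the other classes of the control library, at 0.42 in epicardial and 0.48 in endothelial cells, against -0.082 (epicardial) and 0.18 (endothelial) in the mutant library. Hnrnpdl was also less level in control epicardial cells, at 0.64, against 0.19 in mutant ones. In endothelial cells Hnrnpdl stood at 0.18 (mutant) and -0.11 (control).

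**Figure D3:**
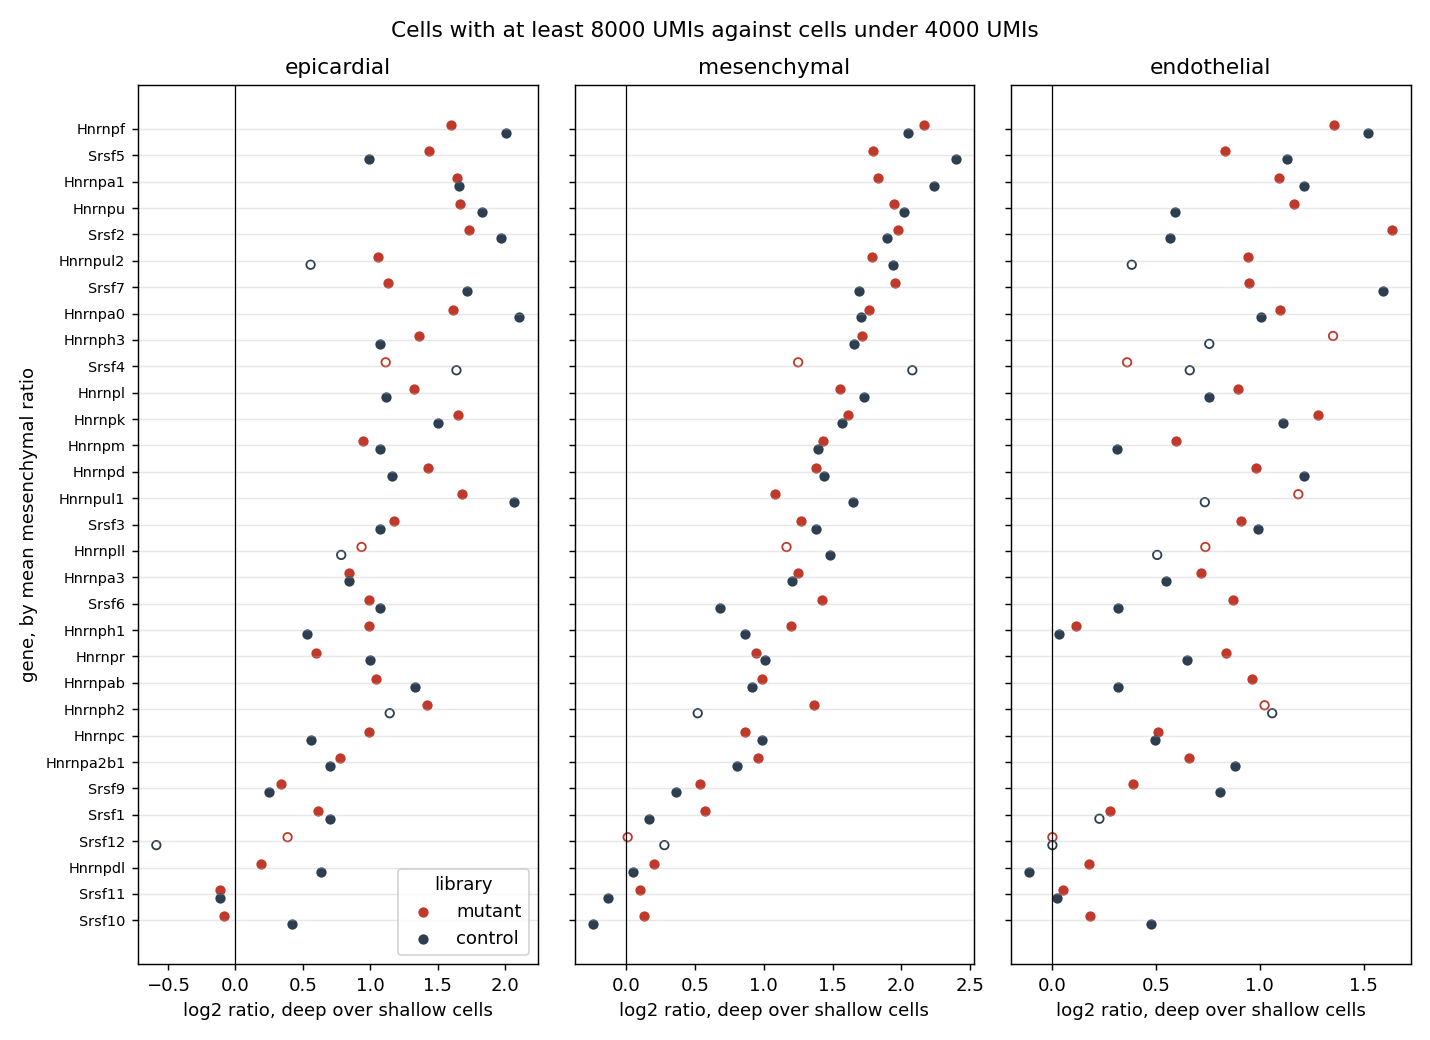
Log2 ratio of CPM in deep over shallow cells (horizontal axis) for each of the 31 genes (rows, by mean mesenchymal ratio) in 3 classes, mutant in red and control in dark; open circles mark members under the minimum of 50 CPM and 30 UMIs. Hnrnpf is at the top with mesenchymal ratios of 2.16 (mutant) and 2.05 (control), and Srsf11 lies beside the line at 0 in all 3 panels.

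Members ranked most alike between the libraries in mesenchymal cells. Across members tested in both, the deep-over-shallow ratios of mutant and control mesenchymal cells had a Spearman correlation of 0.91 (27 members), those of epicardial cells 0.86 (26 members) and those of endothelial cells 0.63 (23 members), given as descriptions across genes that share libraries and are not independent. In epicardial cells 24 of 28 members in the mutant and 21 of 26 in the control library were past 1.5-fold higher in deep cells, against 43.4% (mutant) and 38.3% (control) of genes, and none lower, against 21.4% (mutant) and 20.3% (control). In endothelial cells the counts were 18 of 25 in the mutant, 13 of 23 in the control, against 33.1% (mutant) and 27.5% (control), and none lower, against 14.4% (mutant) and 10.4% (control). Over all 31 members, with no minimum, the epicardial medians were 1.06 (mutant) and 1.07 (control). The endothelial medians were 0.87 (mutant) and 0.65 (control). Cardiomyocytes had 0 of 20 members higher in the mutant and 1 of 21 in the control library, against 13% (mutant) and 11% (control), and 0 members lower in the mutant, 2 in the control, against 13.8% (mutant) and 8.77% (control).

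Other properties moved with depth as well. In mesenchymal cells Malat1, a nuclear RNA, took 3.59% of UMIs in mutant and 3.77% in control cells of the shallowest bin and 1.37% (mutant) and 1.40% (control) in the deepest. Mitochondrial UMIs took 2.93% (mutant) and 2.91% (control) in the shallowest bin and 4.16% (mutant) and 2.56% (control) in the deepest. Cycling cells made up 11.1% (mutant) and 10.6% (control) of the shallowest and 81.8% (mutant) and 71.4% (control) of the deepest bin, but 28.6% (mutant) and 6.25% (control) at 8000 to 16000 UMIs, where the member share was already 0.897% (mutant) and 0.871% (control). The 10 cardiomyocyte markers summed to 181 CPM (mutant) and 159 CPM (control) in the shallowest and 162 CPM (mutant) and 139 CPM (control) in the deepest bin. No doublet caller was run, and the part of doublets, RNA quality or cell state in the depth pattern was not tested.

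Taken over all depths, cycling cells had a larger share of Hnrnp and Srsf UMIs than other cells of their class in both libraries, but among cells of equal depth this held in every bin in cardiomyocytes and not in the other 3 classes. A cell was called cycling if at least 2 of 12 G2/M genes were detected at 10 or more UMIs per 10000. Cycling cells were deeper. Every cell was also thinned to 1000 UMIs, which gives cells equal weight but leaves each cell's composition, and so the larger share of deep cells, in place. The share in thinned epicardial cells was 0.488% in cycling against 0.364% in other mutant cells, and 0.467% against 0.347% in control cells, ratios of 1.34 (mutant) and 1.34 (control). Thinned cardiomyocytes gave shares of 0.332% against 0.253% in the mutant and 0.311% against 0.239% in the control library. The ratios were 1.22 in mutant and 1.17 in control endothelial cells, and 1.12 (mutant) and 1.13 (control) in mesenchymal cells. Without thinning the ratios were 1.31 (mutant) and 1.40 (control) in epicardial cells, 1.27 (mutant) and 1.24 (control) in cardiomyocytes and 1.18 (mutant) and 1.09 (control) in mesenchymal cells. Unthinned endothelial cells had 0.557% in cycling against 0.483% in other cells of the mutant and 0.486% against 0.447% in the control library. In those control cells the median member log2 ratio was 0.011, under the 0.040 of all genes, so the larger share was not spread over most members. Thinned, it was 0.39 beside -0.025, from 9 members. In each other class and library the unthinned member median lay above that of all genes, between 0.13 and 0.51.

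Within bins of depth, cycling cardiomyocytes had the larger share in all 5 bins of both libraries, as at 8000 to 16000 UMIs with 0.327% in cycling against 0.233% in other mutant cells and 0.287% against 0.233% in control cells. In mesenchymal cells the order turned with depth. At 2000 to 4000 UMIs cycling cells had 0.414% against 0.404% in other cells of the mutant and 0.428% against 0.398% in the control library, but at 4000 to 8000 UMIs they had 0.494% against 0.554% in the mutant and 0.541% against 0.583% in the control library. At 8000 to 16000 UMIs they had 0.838% against 0.923% in the mutant library, where the control library held 1 cycling cell, and at 16000 or more 0.945% against 0.953% in the control library, with 2 other cells in each library. Endothelial cycling cells had the larger share in the 3 bins under 8000 UMIs and the smaller at 16000 or more, at 0.656% against 0.739% in the mutant and 0.559% against 0.656% in the control library. Epicardial cycling cells had the smaller share in 1 bin, at 8000 to 16000 UMIs in the control library, with 0.686% in 6 cycling against 0.842% in 10 other cells.

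Some members differed more than others between cycling and remaining cells. Srsf2 in unthinned cardiomyocytes had 101 CPM in cycling against 57.6 CPM in other mutant cells and 83.4 against 56.3 CPM in control cells. Hnrnpdl had 268 against 175 CPM in mutant and 232 against 144 CPM in control cardiomyocytes. Srsf3, the shortest SR protein, had 183 against 128 CPM in mutant and 176 against 117 CPM in control cardiomyocytes. For Srsf11 the values were closer, at 190 against 176 CPM in mutant and 181 against 170 CPM in control cells.

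**Figure D4:**
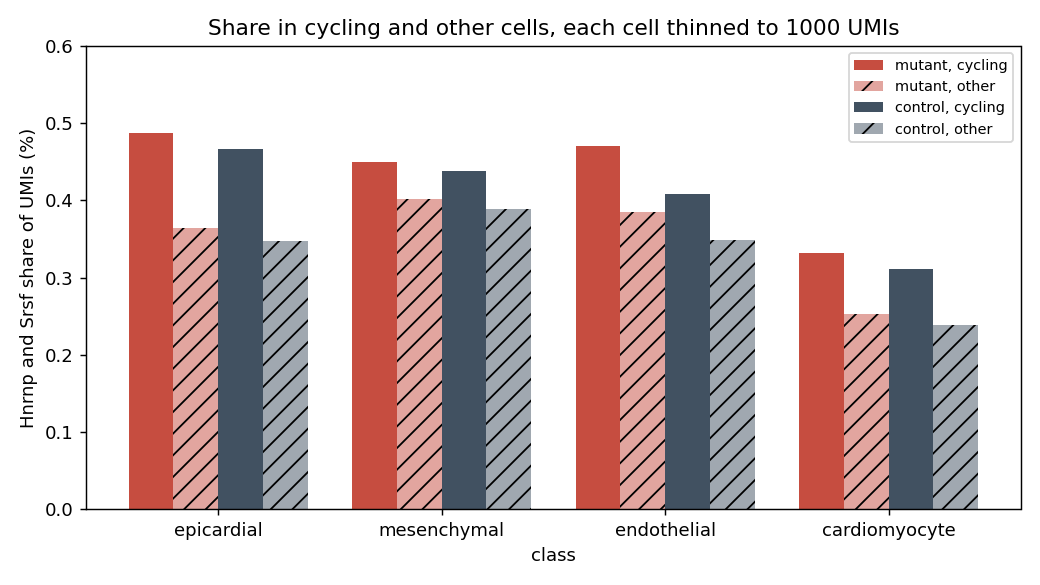
Share of the 31 genes (percent of UMIs, bars from 0) in cycling (solid) and other (hatched) cells of each class after thinning every cell to 1000 UMIs, mutant in red left of control in dark. The cycling bar is taller than its neighbour in all 8 pairs, by ratios between 1.12 and 1.34.

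Between the libraries most Hnrnp and Srsf genes had ratios near 1 in the 4 classes. Prmt1 itself, the targeted gene, had 383 CPM in mutant and 476 CPM in control epicardial cells, 80.5% of control (70.8% to 91.7%). Its level was 712 CPM in mutant and 647 CPM in control mesenchymal cells (110% of control), 664 CPM in mutant and 589 CPM in control endothelial cells (113%) and 740 CPM in mutant and 625 CPM in control cardiomyocytes (118%). Tags at the 3′ end may lie outside the deleted part, so these values check neither deletion nor labels.

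The summed member share in epicardial cells was 0.984 times the control share (0.947 to 1.02), and 1.01 times (0.983 to 1.03) in mesenchymal cells. It was 1.09 times (1.05 to 1.13) in endothelial cells and 1.07 times (1.06 to 1.08) in cardiomyocytes. With every cell thinned to 1000 UMIs the epicardial direction turned, to a log2 ratio of 0.051 from -0.023 at full depth, and it was 0.12 in cells under 4000 UMIs, an alternative chosen after seeing the data. With a minimum of 2000 UMIs and 1000 genes the mesenchymal log2 ratio was -0.080, against 0.012 at the stated minimums.

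Member by member, ratios were taken as log2((CPM mutant + 10)/(CPM control + 10)). Larger ratios were counted past 0.322 on this scale, a ratio of 5 to 4, and past 1.5-fold. In epicardial cells 24 of 31 members passed the minimum. Of these, 2 had a ratio above 0.322 (higher in the mutant library), against 7.52% of 2687 genes tested, and 1 a ratio below -0.322 (lower), against 13.3%; none was past 1.5-fold, against 4.88%. Their log2 ratios were above 0 for 10 of 24, against 46% of all genes, with a median of -0.086 beside -0.023 over all genes. In mesenchymal cells 24 members passed, 1 was past 0.322 higher (5.29% of genes), none was past -0.322 (4.5%) and none was past 1.5-fold (2% of genes). Here 15 of 24 were above 0, against 49.5% of genes, with a median of 0.047 beside -0.0026.

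In endothelial cells 23 members passed, of which 3 were past 0.322 higher (12.7% of genes), none was past -0.322 (7.6%) and 1, Srsf2, was past 1.5-fold (5.47%). Of these 23, 19 were above 0, against 47% of genes, with a median of 0.14 beside -0.018. Mutant endothelial cells were deeper, with a median of 3396 UMIs in mutant and 2558 UMIs in control cells, and in cells under 4000 UMIs the median log2 ratio of members was 0.045 and the log2 share ratio 0.060, against 0.13 at full depth. In cardiomyocytes none of 19 members was past 0.322 either way, against 1.73% of genes higher and 1.28% lower, and none past 1.5-fold, against 0.691%. Even so, 18 of the 19 lay above 0, against 51.8% of genes, with a median of 0.073 beside 0.0026. Tested carriers of methylarginine under other symbols were also above 0 in cardiomyocytes, as given with the related lists below. Over all 31 members, those under the minimum included, 12 were above 0 in epicardial, 19 in mesenchymal, 24 in endothelial cells and 23 in cardiomyocytes. The share of all genes above 0 without a minimum was not taken. Without it, the member medians were -0.083 in epicardial, 0.034 in mesenchymal, 0.13 in endothelial cells and 0.063 in cardiomyocytes. Those of all genes were -0.027, 0.0040, 0.056 and 0.0054 in the same order.

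Hnrnpl, a regulator that binds CA repeats, was, among members that passed the minimum, in the 3 with the highest ratio in each of the 4 classes. It had 90.4 CPM in mutant (75.8 to 107) and 69.8 CPM in control (53.2 to 89.8) epicardial cells. In mesenchymal cells it had 90.2 CPM in mutant and 79.1 CPM in control, and in endothelial cells 95.2 CPM (mutant) and 70.0 CPM (control). With far more UMIs, cardiomyocytes had 73.5 CPM in the mutant (70.3 to 76.8) and 57.7 CPM in the control library (55.0 to 60.4), a ratio of 1.27 (1.19 to 1.36). The interval of the epicardial ratio held 1 (0.949 to 1.79), as did that of the mesenchymal ratio of 1.14 (0.934 to 1.40). With a minimum of 2000 UMIs and 1000 genes the mesenchymal log2 ratio was -0.048, against 0.17 otherwise.

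Srsf10 had the highest epicardial ratio of the members that passed, with 199 CPM in mutant (177 to 223) and 133 CPM in control cells (109 to 159). The interval of the ratio was 1.20 to 1.88, from 297 mutant and 114 control UMIs. In thinned cells its log2 ratio was 0.91, against 0.55 at full depth. In the other classes it stood closer, at 250 CPM in mutant and 232 CPM in control mesenchymal cells, 164 CPM in mutant and 148 CPM in control endothelial cells and 100.5 CPM in mutant and 92.6 CPM in control cardiomyocytes. Whether the epicardial ratio differed from these was not tested.

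Srsf7, an SR protein with a zinc knuckle, had the lowest epicardial ratio of the members that passed the minimum, with 64.3 CPM in mutant and 91.9 CPM in control cells, a ratio of 0.700 (0.514 to 0.955) from 96 mutant and 79 control UMIs. Its direction did not hold under every setting: thinned to 1000 UMIs per cell its log2 ratio was 0.11, against -0.46 at full depth, and in cells under 4000 UMIs it was -0.0070. In mesenchymal cells it had 106 CPM in mutant and 88.5 CPM in control. Hnrnph1 had 86.4 CPM in mutant and 107 CPM in control epicardial cells and 83.1 CPM in mutant and 100.1 CPM in control mesenchymal cells, with intervals of the ratio that held 1 in both. Hnrnpdl had 249 CPM in mutant and 210 CPM in control epicardial cells (ratio 1.18, 0.988 to 1.42), and 219 CPM in mutant and 189 CPM in control cardiomyocytes (1.16, 1.11 to 1.20).

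Among the members that passed, Srsf3 had the highest mesenchymal ratio, with 265 CPM in mutant (249 to 283) and 210 CPM in control cells (190 to 232), a ratio of 1.26. Hnrnpd, which binds AU-rich elements and promotes decay of mRNAs, had the lowest of the members that passed, with 190 CPM in mutant and 234 CPM in control cells, a ratio of 0.812 (0.718 to 0.919). Hnrnpa3 lay lower in the mutant library in epicardial cells (290 CPM in mutant and 342 CPM in control cells) and mesenchymal cells (292 CPM in mutant and 346 CPM in control cells), and higher in endothelial cells (318 CPM in mutant and 260 CPM in control cells). Srsf9 had 126 CPM in mutant and 150 CPM in control epicardial cells and 131 CPM in mutant and 153 CPM in control mesenchymal cells.

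Srsf2 had the largest ratio of any member that passed in the 4 classes, in endothelial cells, with 158 CPM in mutant (139 to 180) and 91.8 CPM in control (74.7 to 111). It rested on deep cells: without the 5% of cells with the most UMIs the log2 ratio was 0.19, against 0.73 with them, and in cells under 4000 UMIs it was -0.095. Srsf5, also an SR protein, had 53.6 CPM in mutant and 36.3 CPM in control endothelial cells, from 80 mutant and 40 control UMIs. Hnrnpa0 was the 1 member below 0 among the 19 that passed the minimum in cardiomyocytes, with 129 CPM in mutant and 135 CPM in control cells (0.951, 0.908 to 0.995), though its log2 ratio was 0.069 in the cardiomyocytes under 4000 UMIs. Hnrnpm and Hnrnpr came next lowest among those 19, with 80.6 CPM (mutant) and 78.4 CPM (control) for Hnrnpm and 58.5 CPM (mutant) and 56.8 CPM (control) for Hnrnpr. Hnrnpu had 91.8 CPM in mutant and 80.5 CPM in control cardiomyocytes (1.14, 1.08 to 1.21).

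**Figure D5:**
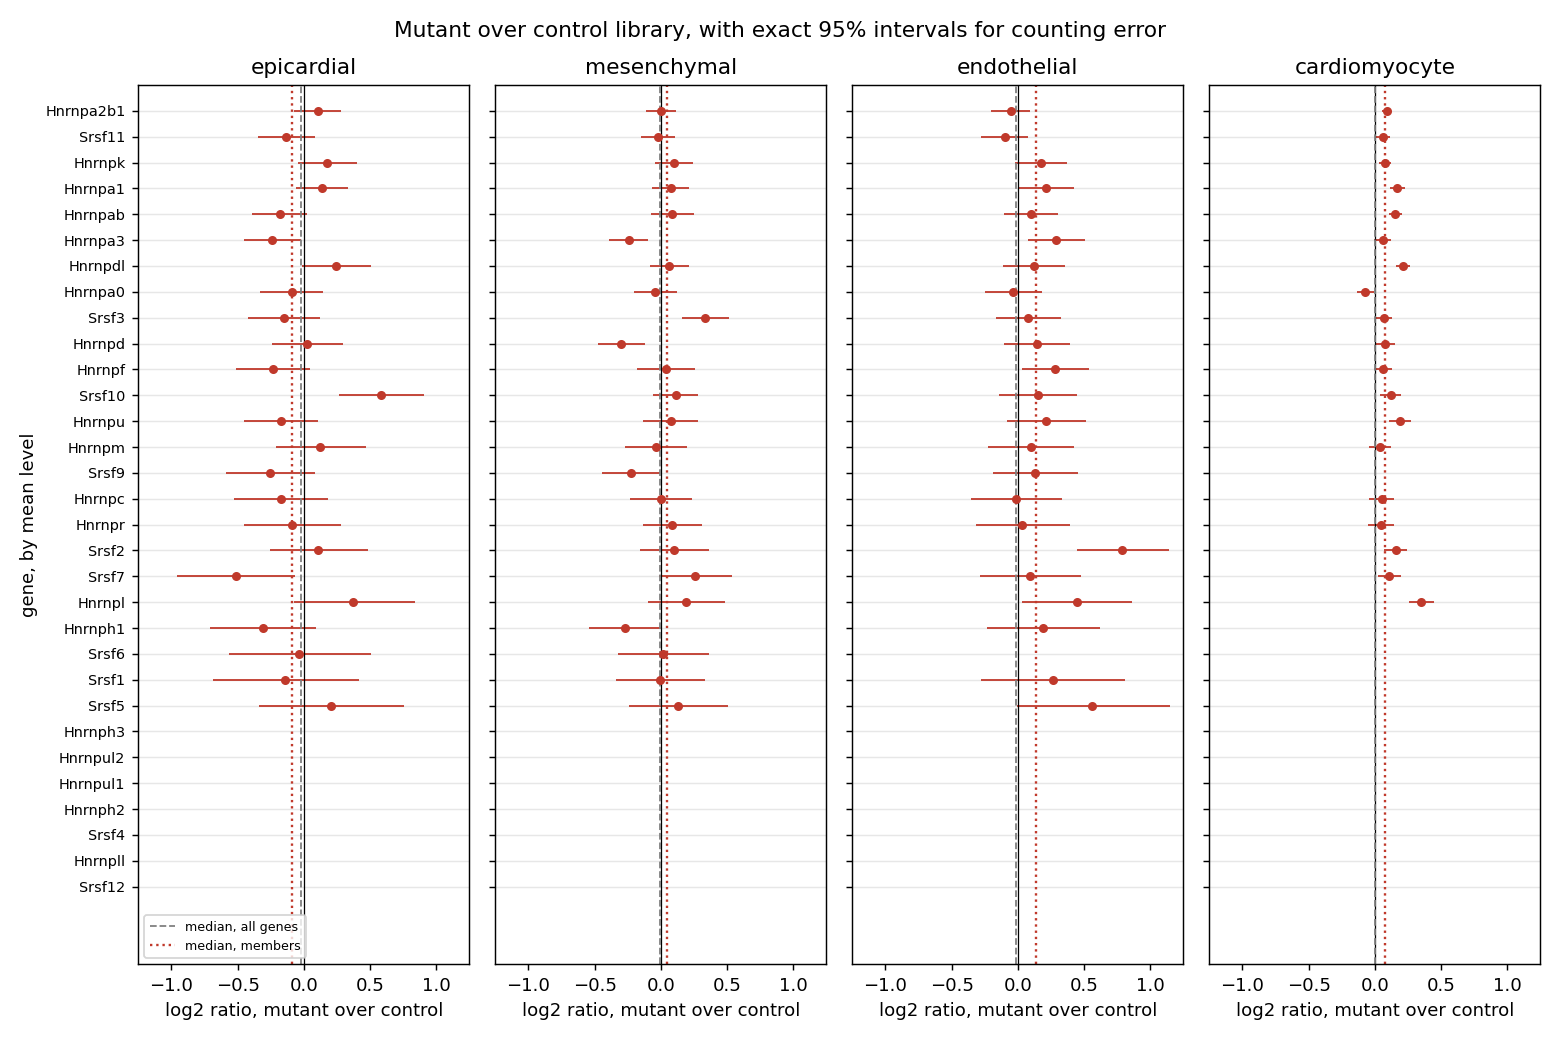
Log2 of the plain CPM ratio, mutant over control (horizontal axis), for each member that passed the minimum (rows, by mean level), with exact 95% intervals for counting error; dashed grey lines give the median over all genes and dotted red lines the median over members, both with 10 CPM added. Most points lie within 0.5 of 0, with Srsf10 to the right in epicardial cells, Srsf2 to the right in endothelial cells and Hnrnpl to the right in all 4 panels.

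Members with many arginine-glycine codon pairs were set beside the others. In epicardial cells the median log2 ratio was -0.083 for the 15 tested members with at least 5 pairs and -0.13 for the 9 with fewer. In mesenchymal cells the median was -0.0018 with at least 5 pairs and 0.092 with fewer, in endothelial cells 0.14 against 0.11, and in cardiomyocytes 0.073 against 0.079.

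Related lists gave ratios of similar size in epicardial cells. Of all 2687 genes tested in these cells, 7.52% were past 0.322 higher and 13.3% were below -0.322, the background for the epicardial counts that follow. Of 8 tested hnRNP proteins under other symbols, Cirbp, a cold-inducible RNA-binding protein, was past 0.322 higher (214 CPM in mutant and 166 CPM in control cells) and none lower. Raly, Elavl1 and Pcbp1 lay between, at log2 ratios of -0.16, 0.14 and -0.12. Of 14 other RNA-binding carriers of methylarginine, Safb was below -0.322 (36.2 CPM in mutant and 66.3 CPM in control cells) and none higher, with Fxr1 at 0.320, Nono at -0.29 and Ncl at -0.28. Of 18 SR-related and spliceosome proteins 2 were past 0.322 higher, Pnn (log2 ratio 0.43) and Snrnp70 (142 CPM in mutant and 110 CPM in control cells), and Acin1 was lower (112 CPM in mutant and 148 CPM in control cells), with U2af1 at 0.26. Of 3 tested SR protein kinases and importins (Srpk2, Srpk1 and Clk1) none was past the fold, nor were the 3 tissue splicing regulators tested (Celf2, Rbfox2 and Mbnl2), nor Prmt1, the methyltransferase that passed the minimum. The median log2 ratio was -0.038 for the hnRNP proteins under other symbols, -0.098 for the carriers of methylarginine and 0.064 for the SR-related and spliceosome proteins. It was 0.075 for the kinases and importins and -0.26 for the tissue splicing regulators, and Prmt1 alone stood at -0.31. In cardiomyocytes, where 51.8% of genes were above 0, so were 10 of 10 tested carriers of methylarginine (median 0.067). Of the hnRNP proteins under other symbols 4 of 5 were (median 0.057). The share ratios of these lists were 1.06 and 1.06. Of 15 SR-related and spliceosome proteins 7 were above 0, with a median of -0.0031 and a share ratio of 1.01.

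Immediate early genes, which respond to handling stress among other stimuli, lay further apart between the libraries in epicardial cells than any Hnrnp or Srsf gene. There Atf3 had 123 CPM in mutant and 391 CPM in control cells, Egr1 88.4 CPM (mutant) and 233 CPM (control), Fos 195 CPM (mutant) and 430 CPM (control) and Jun 135 CPM (mutant) and 287 CPM (control). In endothelial cells the order was opposite, with Fos at 303 CPM in mutant and 114 CPM in control cells. The list of RNA quality and stress genes had median log2 ratios of -1.10 in epicardial, 0.35 in mesenchymal and 1.11 in endothelial cells and -0.23 in cardiomyocytes. Its part in the ratios of the Hnrnp and Srsf genes was not tested.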

How the data were processed

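Counts of UMIs per gene and barcode were deposited by the authors, and per the file headers come from Cell Ranger 3.0.2. The labels' protocols name a Chromium v2 kit. Genome build: not given in the sources used here. Of the matrices, the mutant one listed 7181 barcodes and was already filtered, and the control one listed 6794880. The control list has the size of a later kit's barcode list, although the labels name v2. The kit of each library is therefore uncertain. Whether it differed between the libraries, and so with genotype, was not tested. The same cell minimums were applied to both matrices. Of the barcodes with 1000 UMIs, 2131 mutant and 1744 control ones had under 500 genes and were left out.

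Cells were gated by markers (for epicardial cells at least 2 of 10 markers and 5 UMIs per 10000; the cuts were set with the data at hand). The epicardial gate also required a UMI of Upk3b, Upk1b, Krt19, Krt7, Msln or Lrrn4. Cells that passed the epicardial and mesenchymal gates and no other were kept as epicardial. Cells of any other mix of classes, 373 mutant and 353 control, were left out. So were 387 mutant and 325 control cells that passed no gate. UMIs were summed per class and library and divided by the total (CPM). Intervals are exact Poisson, Clopper-Pearson or conditional binomial at 95%, for counting error only. Thinning was averaged over 10 draws. Python 3.11.15, numpy 2.4.6, scipy 1.17.1 and pandas 2.3.3 were used. The ratio computation was tested on simulated data.

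Named are the 10 members with the highest mean CPM, the 3 highest and 3 lowest ratios in each of 4 classes, the 6 with the largest spread over classes, and up to 4 genes of each list by epicardial ratio; other values are context chosen after they were seen. Members, markers and lists were chosen with earlier results of these data known. Arginine-glycine content was planned from RefSeq proteins and taken from GENCODE M21 coding sequences instead. Of the gene identifiers, 99.6% were in GENCODE M21. Strand use in counting is not stated, so reads of genes that overlap an antisense partner, such as Srsf2, Hnrnpk and Hnrnpu, and of Hnrnpa1, which has near-identical pseudogenes, are uncertain. Members that overlap a gene on the same strand, such as Hnrnpm with March2 and Hnrnpul2 with AC129217.1, are uncertain whatever the strand use.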

Additional observations from a re-analysis of the deposited data

How the results depend on the processing

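No paired analysis was possible because there was 1 library per genotype; for the same reason no library could be left out. Over the settings tried, 91 of the summary values were classed as unchanged and 41 as moved. Medians and shares were held against their counting spread. Counts of members past the fold have no such spread and were classed by another rule. Of 847 ratios of named members 800 stayed within their counting interval and 45 moved. A ratio past 0.322 either way changed sign in the other 2, Srsf7 in epicardial cells (0.11 thinned) and Srsf2 in endothelial cells (-0.095 under 4000 UMIs). Counting ratios of any size, 58 of the 847 changed sign. The cause was not tested.

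Epicardial cells had a median log2 ratio of -0.086, which was 0.0010 with equal weight per cell, 0.018 thinned to 1000 UMIs and 0.16 in cells under 4000 UMIs. The log2 share ratio of -0.023 was 0.059, 0.051 and 0.12 under those settings, and -0.11 without the 5% of cells with the most UMIs. The 3 of 24 members past the fold were 0 of 24 at 1.5-fold and 7 of 20 under 4000 UMIs, from 307 mutant and 174 control cells. Mesenchymal cells had a median of 0.047, against -0.081 with a minimum of 2000 UMIs and 1000 genes and -0.022 with a stricter gate, and a share ratio of 0.012, against -0.080 and -0.037. Their 1 of 24 members past the fold was 3 of 23 with equal weight, 2 of 26 with the higher minimum, 0 of 24 at 10% mitochondrial UMIs and 4 of 23 thinned. It was 2 of 31 with no filter on low values, 2 of 23 without the 5% deepest, 0 of 24 at 1.5-fold and 2 of 22 under 4000 UMIs. Cardiomyocytes had a median of 0.073, against 0.094 with equal weight, 0.047 thinned and 0.18 under 4000 UMIs, and a share ratio of 0.094, against 0.079 thinned, 0.075 without the 5% deepest and 0.14 under 4000 UMIs. Their count of 0 of 19 was 1 of 19 with equal weight, 1 of 19 thinned and 1 of 19 with a pseudocount of 1 CPM. It was 7 of 21 under 4000 UMIs, from 64 mutant and 168 control cells. Endothelial cells had a median of 0.14 and a share ratio of 0.13, against 0.045 and 0.060 under 4000 UMIs. Their count of 3 of 23 was 5 of 20 thinned, 1 of 23 at 1.5-fold and 5 of 21 under 4000 UMIs, from 159 mutant and 145 control cells. Apart from 1.5-fold, the share of all genes past the fold under each changed setting is not given here. These counts therefore have no background beside them and are not read as results about the members. The log2 share ratio of cycling to other cells after thinning was 0.17 in mutant mesenchymal cells (0.24 unthinned), 0.39 in mutant (0.34) and 0.38 in control (0.31) cardiomyocytes, and 0.29 in mutant (0.20) and 0.23 in control (0.12) endothelial cells. The settings on cells under 4000 UMIs, and the share ratios with equal weight, the higher minimum, the stricter gate and without the deepest cells, were chosen after seeing the data.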

Other observations

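Immune cells, led by Tyrobp, Fcer1g and complement genes and numbering 69 mutant and 67 control cells, had a wider gap between libraries in the Hnrnp and Srsf share than epicardial, mesenchymal or endothelial cells or cardiomyocytes. It was 0.410% of UMIs in mutant (0.389% to 0.431%) and 0.281% in control cells (0.260% to 0.304%). Median depth was 4194 UMIs in mutant and 2692 UMIs in control immune cells. At 2000 to 4000 UMIs per cell the shares were 0.289% in mutant and 0.276% in control cells, and at 4000 to 8000 UMIs 0.333% in mutant and 0.256% in control cells. The mutant library held 2 immune cells with at least 16000 UMIs, at a share of 0.810%, and the control library held none. Hnrnpa1 had 258 CPM in mutant (208 to 317) and 87.5 CPM in control immune cells (53.5 to 135), from 91 mutant and 20 control UMIs, while Hnrnpa2b1 had 547 CPM in mutant and 486 CPM in control immune cells.

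Erythroid cells, whose haemoglobin genes took 75.7% of UMIs in the mutant and 81.2% in the control library, gave the 31 genes 0.0666% of mutant and 0.0448% of control UMIs. With haemoglobin UMIs taken out of the total, the shares were 0.274% in mutant and 0.238% in control erythroid cells.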
